A study of Homo sapiens with 6 samples.

Results

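The genes described here encode the inhibitor of apoptosis (IAP) proteins, their mitochondrial antagonists and the brakes of the TNF receptor complex: XIAP, BIRC2, BIRC3, BIRC6, DIABLO, HTRA2, CFLAR, RIPK1 and TRAF2. They were chosen by name, not by a measured value, and all 9 were found by symbol among the 20036 genes of the deposited table. Expression was measured by RNA-seq of poly(A) RNA in MV411, an established cell line grown from a B-myelomonocytic leukaemia. The labels call the cells wild type. They had 48 h in corilagin, an ellagitannin made by plants, or in DMSO, with 3 libraries per group, and no dose is stated in the sources used here. MV411 stands for 1 leukaemia only. Whether the replicates are separate cultures is not given in the labels, and the p-values therefore cover the spread between these libraries alone, which may be technical. In such bulk RNA, fewer cells of a kind and less RNA per cell cannot be told apart. Each library held 17776955 to 21640688 fragments, and levels are given as FPKM, fragments scaled to gene length and to the size of the library.

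IAP proteins carry baculoviral IAP repeats, and most of those described here also carry a RING domain that attaches ubiquitin. XIAP binds and blocks the caspases that start and execute apoptosis, whereas BIRC2 and BIRC3 mainly act as ubiquitin ligases in the TNF receptor complex, where they are recruited by TRAF2 and modify RIPK1. DIABLO and HTRA2 leave the mitochondria during apoptosis and displace caspases from XIAP. CFLAR resembles caspase-8 without its catalytic activity and holds caspase-8 in check. The series title names pyroptosis, a form of cell death that caspases can start.

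DMSO replicate 3 stood apart from the other DMSO libraries in a way that follows transcript GC content, and these genes are spread widely over that scale. Among tested genes of 31.3 to 39.2% GC, the median deviation from each gene's mean was -0.50 and -0.43 (log2) in DMSO replicates 1 and 2, but 0.24 in DMSO replicate 3 and 0.21 to 0.26 after corilagin. The coding stretches printed below, each of 120 bases within 1 exon on GRCh38, were chosen as those whose GC content was closest to that of the whole transcript, and they are shown because the base composition of the genes differs so plainly. G and C are in capitals. They lie at chrX:123885728-123885847 (XIAP), chr2:32377646-32377765 (BIRC6), chr2:74530623-74530742 (HTRA2) and chr9:136920286-136920405 (TRAF2), all on the plus strand.
XIAP: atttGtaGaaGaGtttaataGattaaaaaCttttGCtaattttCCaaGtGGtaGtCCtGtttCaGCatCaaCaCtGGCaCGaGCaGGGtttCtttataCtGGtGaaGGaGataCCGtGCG
BIRC6: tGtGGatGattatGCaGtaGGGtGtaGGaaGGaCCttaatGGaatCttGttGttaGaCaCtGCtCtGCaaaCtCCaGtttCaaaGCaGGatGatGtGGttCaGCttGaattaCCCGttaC
HTRA2: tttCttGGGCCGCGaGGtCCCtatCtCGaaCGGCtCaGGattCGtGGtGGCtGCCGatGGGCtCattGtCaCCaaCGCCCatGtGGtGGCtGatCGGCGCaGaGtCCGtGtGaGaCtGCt
TRAF2: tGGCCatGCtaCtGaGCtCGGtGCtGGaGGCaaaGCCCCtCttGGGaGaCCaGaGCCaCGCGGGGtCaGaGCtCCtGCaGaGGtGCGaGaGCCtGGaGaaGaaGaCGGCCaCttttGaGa
The stretch was 39.2% GC in XIAP and 43.3% in BIRC6, against 60.8% in HTRA2 and 61.7% in TRAF2. Over whole transcripts, GC content was 34.8% for BIRC3, 38.0% for BIRC2, 39.0% for XIAP, 43.1% for BIRC6, 44.1% for CFLAR, 49.6% for RIPK1, 55.9% for DIABLO, 60.5% for HTRA2 and 61.3% for TRAF2. Because DMSO replicate 3 stood with the corilagin libraries in this respect, the 9 genes are given as deposited, after subtraction of each library's GC trend (called GC removal, or the trend removed) and against DMSO replicate 3 alone. The comparison with DMSO replicate 3 alone rests on 1 DMSO library and holds no spread between DMSO libraries. Its log2 differences are therefore given without p-values. For BIRC3 and DIABLO, GC removal was made on recovered fragments.

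As deposited, RIPK1 and XIAP mRNA were higher and HTRA2 mRNA was lower with corilagin, but each of these calls ended in some of the alternatives below. RIPK1 rose 1.33-fold and XIAP 1.51-fold, and HTRA2 fell to 0.690 of its DMSO level. The 4 other genes above the filter of a mean of 1 FPKM (BIRC2, BIRC6, CFLAR and TRAF2) did not pass, and BIRC3 and DIABLO lay below that filter. Of the 7 tested genes, limma thus called 2 higher and 1 lower at an adjusted p under 0.05, beside 11.9% and 13.5% of all 9868 tested genes, or 25.4% in either direction. The median log2 difference of the 7 genes was 0.34, against 0.03 for all genes. It was 0.15 with the GC trend removed and 0.04 against DMSO replicate 3 alone, beside -0.01 and 0.01 for all genes. With the GC trend removed the count was again 2 higher and 1 lower, but with BIRC6 in place of XIAP, beside 21.8% of all genes called higher and 23.2% lower (45% in either direction). Against DMSO replicate 3 alone, the log2 difference was 0.29 for RIPK1, 0.18 for XIAP, 0.04 for BIRC6 and -0.21 for HTRA2.

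**Figure D1:**
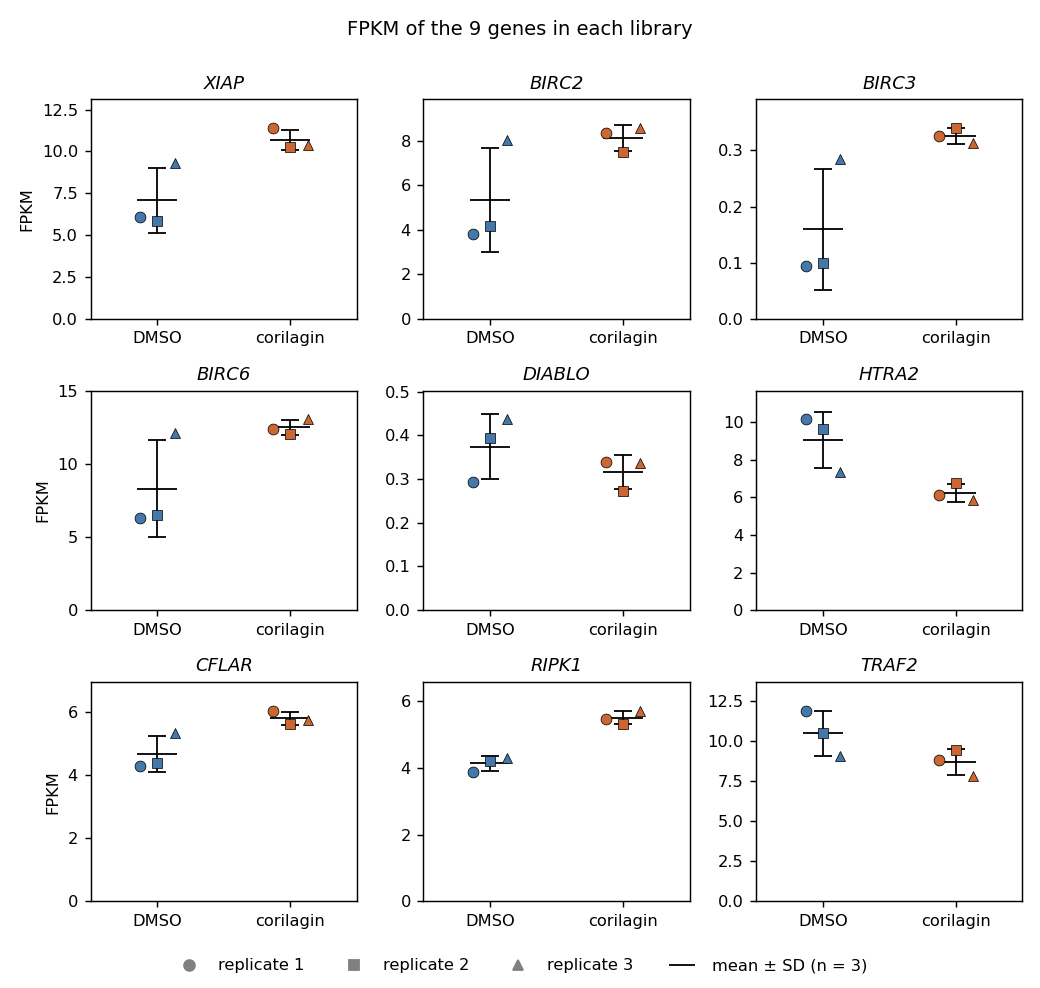
FPKM (vertical axes, each from 0) of the 9 genes in the 3 DMSO (blue) and 3 corilagin (orange) libraries; symbols mark replicate numbers and black bars the mean ± SD. DMSO replicate 3 (triangle) lay close to the corilagin libraries for BIRC2, BIRC3 and BIRC6, and apart from them for RIPK1.

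RIPK1, the kinase and scaffold of the TNF receptor complex whose ubiquitin chains decide between survival signalling and cell death (ENSG00000137275, GRCh38 chromosome 6, 3063991 to 3115187, plus strand), was at 5.46, 5.33 and 5.71 FPKM in corilagin replicates 1 to 3. In DMSO it was at 3.89, 4.22 and 4.31 FPKM. All 3 corilagin libraries lay above every DMSO library, and the DMSO libraries lay close together. The means were 5.50 ± 0.196 and 4.14 ± 0.222 FPKM (SD, n = 3 per group), with a log2 difference of 0.34 (SE 0.0796) on the log2(FPKM + 1) scale and a limma adjusted p of 0.0264. The difference was 0.38 after GC removal (limma adjusted p = 0.00317) and 0.29 against DMSO replicate 3 alone. The call was lost with quantile normalization (log2 difference 0.25, limma adjusted p = 0.0583). The gene length implied by its FPKM was 12173 bases, against 4231 exonic bases in GENCODE 29, so its level cannot be set beside those of other genes without that difference in gene model.

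XIAP, a direct inhibitor of caspases (ENSG00000101966, chromosome X, 123859724 to 123913979, plus strand), was at 11.4, 10.3 and 10.4 FPKM after corilagin. The DMSO libraries lay at 6.07, 5.84 and 9.32 FPKM. The groups did not overlap, but DMSO replicate 3 stood closer to the corilagin libraries than to the other DMSO libraries. The means were 10.7 ± 0.614 and 7.08 ± 1.95 FPKM (SD, n = 3 per group), with a log2 difference of 0.56 (SE 0.163) and a limma adjusted p of 0.0452. With the GC trend removed the difference was 0.15 (limma adjusted p = 0.0832), and against DMSO replicate 3 alone it was 0.18. Both of these values kept the direction. The first missed the threshold, as did the fit with no filter on low genes (limma adjusted p = 0.0768).

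HTRA2, a mitochondrial serine protease that binds and cleaves IAP proteins after release (ENSG00000115317, chromosome 2, 74529377 to 74533348, plus strand), was at 6.15, 6.76 and 5.84 FPKM after corilagin. In DMSO it was at 10.2, 9.65 and 7.35 FPKM, from 445 to 680 fragments. Every corilagin library lay below every DMSO library, with DMSO replicate 3 the nearest. The log2 difference was -0.46 (SE 0.127, limma adjusted p = 0.0388). With the GC trend taken out it was -0.26 (limma adjusted p = 0.00899), and it was -0.21 against DMSO replicate 3 alone. With no filter on low genes the call ended (limma adjusted p = 0.0643). Exons of LOXL3 and AUP1 on the opposite strand cover 20.8% and 16.1% of its exonic bases, and the protocols do not state that strand was kept. The mean of AUP1 was 37.8 FPKM with corilagin and 45.0 FPKM with DMSO. If strand was not kept, reads of AUP1 and HTRA2 cannot be told apart where they overlap.

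DIABLO, the antagonist also known as Smac (ENSG00000184047, chromosome 12, 122207663 to 122226568, minus strand), was at 0.339, 0.272 and 0.338 FPKM after corilagin and at 0.292, 0.394 and 0.436 FPKM in DMSO. The groups overlapped, and the log2 difference was -0.06 (SE 0.0469) with a limma adjusted p of 0.404 in the fit without the filter. It was -0.13 against DMSO replicate 3 alone, and limma-voom with the GC trend removed gave -0.16 (adjusted p = 0.633). These values came from 37 to 55 fragments per library. In GENCODE 29, a second gene of the same symbol (ENSG00000284934) and 1 further protein-coding gene lie over it on the same strand, and exons of other genes on that strand cover 55.8% of the coding bases of DIABLO. The second gene was at 0.0 FPKM in all corilagin libraries and at a mean of 0.008 FPKM in DMSO. HTSeq is named in the processing notes without its settings, and whether fragments in the shared exons went to neither gene was not tested. The values for DIABLO therefore describe the fragments assigned to this row, not the level of its mRNA.

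BIRC2, also called cIAP1 (ENSG00000110330, chromosome 11, 102347211 to 102378670, plus strand), was at 8.36, 7.47 and 8.57 FPKM after corilagin. The DMSO libraries were at 3.81, 4.15 and 8.05 FPKM. DMSO replicate 3 fell within the corilagin range, and the other DMSO libraries lay at roughly the same low level. The log2 difference was 0.59 (SE 0.231) with a limma adjusted p of 0.0926. It went to 0.15 after GC removal (limma adjusted p = 0.143) and to 0.01 against DMSO replicate 3 alone.

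BIRC3, or cIAP2, the paralog that lies next to BIRC2 on the same strand (ENSG00000023445, chromosome 11, 102317450 to 102339403), was at 0.326, 0.340 and 0.313 FPKM after corilagin and at 0.0947, 0.0994 and 0.284 FPKM in DMSO. All corilagin libraries lay above the DMSO libraries, the third of which was close to them. The values rest on 43 to 53 fragments per corilagin library and on 14, 15 and 38 fragments in DMSO. On the log2(FPKM + 1) scale the difference was 0.20 (SE 0.0635, limma adjusted p = 0.0898, fit without the filter, in which 5.87% of 15921 genes were called higher and 6.44% lower, 12.3% together). On recovered fragments, limma-voom gave a log2 difference of 1.24 (adjusted p = 0.0562), or 0.62 with the GC trend removed (adjusted p = 0.0487), where 11.2% of genes were called higher and 14.6% lower, 25.9% together. Against DMSO replicate 3 alone the difference was 0.05 on the log2(FPKM + 1) scale. Per length, the ratio of BIRC2 to BIRC3 averaged 36.7 over the 3 DMSO libraries, and after corilagin their means were 8.13 and 0.326 FPKM.

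BIRC3 is a textbook target of NF-kB, and the start regions of these neighbouring genes are shown because the genes share ancestry and differ so much in level. The windows are from RefSeq (GRCh38.p14), run from 250 bases before to 50 after an annotated start, and lie on the plus strand at chr11:102317234-102317533 (BIRC3) and chr11:102346964-102347263 (BIRC2, the first of its windows). Capitals mark matches to GGGNNNNNCC, a loose form of the NF-kB motif, on either strand, where neighbouring matches may overlap.
BIRC3: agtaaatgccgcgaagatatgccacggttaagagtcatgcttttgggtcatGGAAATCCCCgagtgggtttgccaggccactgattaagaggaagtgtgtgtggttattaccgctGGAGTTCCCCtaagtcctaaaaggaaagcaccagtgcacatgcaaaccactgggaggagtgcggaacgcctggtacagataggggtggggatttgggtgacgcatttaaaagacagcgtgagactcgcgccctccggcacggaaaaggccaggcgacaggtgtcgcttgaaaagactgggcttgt
BIRC2: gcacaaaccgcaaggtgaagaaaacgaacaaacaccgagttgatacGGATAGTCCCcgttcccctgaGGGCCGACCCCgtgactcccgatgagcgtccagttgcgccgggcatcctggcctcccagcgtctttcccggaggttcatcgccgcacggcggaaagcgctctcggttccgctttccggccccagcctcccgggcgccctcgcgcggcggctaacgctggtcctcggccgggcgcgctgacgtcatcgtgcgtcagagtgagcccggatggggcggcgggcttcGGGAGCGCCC
The BIRC3 window held 2 matches, 15 CG dinucleotides and 53.3% GC, and the BIRC2 window 4 matches, 40 CG dinucleotides and 68.7% GC. At least 1 match stood in 17 of the 22 windows of the 9 genes and in 58.7% of all 35116 windows of the same length, so the motif as written is common, and a match is a description of the letters only.

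BIRC6, a giant IAP protein that couples ubiquitin to caspases, HTRA2 and DIABLO (ENSG00000115760, chromosome 2, 32357028 to 32618899, plus strand), was at 12.4, 12.1 and 13.1 FPKM after corilagin. In DMSO it was at 6.30, 6.50 and 12.2 FPKM. DMSO replicate 3 lay within the corilagin range. The means were 12.5 ± 0.495 and 8.32 ± 3.32 FPKM (SD, n = 3 per group), and the log2 difference was 0.59 (limma adjusted p = 0.0807). It was 0.38 with the GC trend removed, where it passed (limma adjusted p = 0.0467), and 0.04 against DMSO replicate 3 alone. In limma-voom with the trend removed it was 0.40 and did not pass (adjusted p = 0.0504). With the trend removed from log2(FPKM + 1), the deviations from the gene mean were still -0.36 and -0.37 (log2) in DMSO replicates 1 and 2 and 0.16 in DMSO replicate 3, inside the corilagin range of 0.16 to 0.23, so that call rests on the first 2 DMSO libraries.

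CFLAR, which encodes c-FLIP (ENSG00000003402, chromosome 2, 201116104 to 201176687, plus strand), was at 6.03, 5.61 and 5.73 FPKM after corilagin and at 4.28, 4.37 and 5.33 FPKM in DMSO. The groups did not overlap, again with DMSO replicate 3 nearest to the corilagin libraries. The log2 difference was 0.27 (SE 0.0977, limma adjusted p = 0.0787). It was 0.11 after GC removal (limma adjusted p = 0.122) and 0.10 against DMSO replicate 3 alone. Exons of CFLAR-AS1 and of a pseudogene on the opposite strand cover 3.4% and 6.6% of its exonic bases. If strand was not kept, their reads cannot be told apart from those of CFLAR there. The long and short c-FLIP isoforms act differently, and gene-level values do not separate them.

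TRAF2, the adaptor that brings BIRC2 and BIRC3 to the receptor (ENSG00000127191, chromosome 9, 136881912 to 136926607, plus strand), was at 8.84, 9.46 and 7.83 FPKM after corilagin and at 11.9, 10.5 and 9.07 FPKM in DMSO. The groups overlapped. The log2 difference was -0.24 (SE 0.118, limma adjusted p = 0.151). It shrank to -0.03 after GC removal (limma adjusted p = 0.740) and to -0.06 against DMSO replicate 3 alone.

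**Figure D2:**
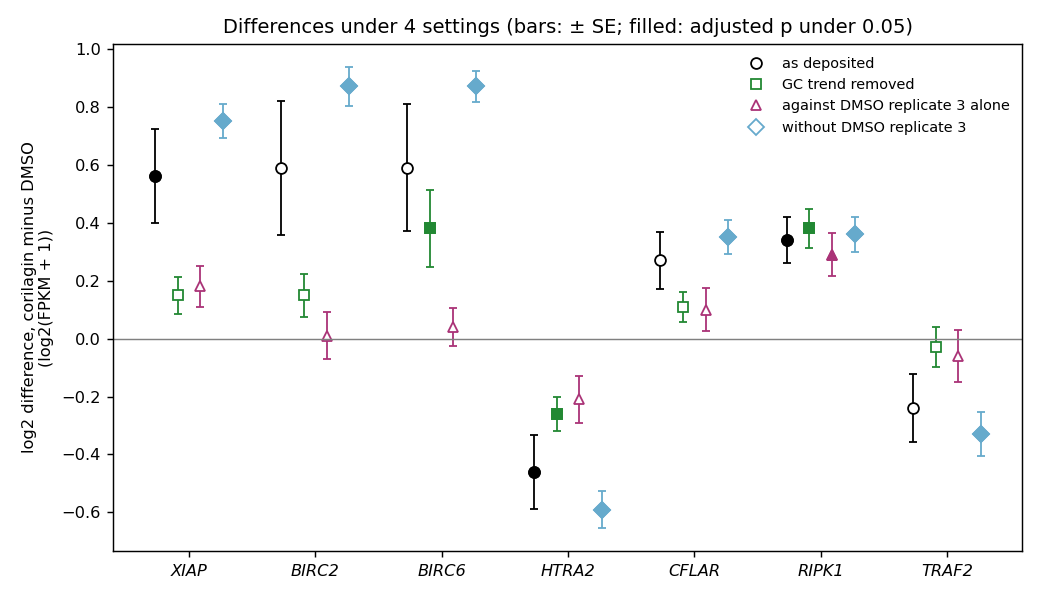
Log2 difference between corilagin and DMSO (vertical axis, log2(FPKM + 1)) for the 7 tested genes under 4 settings; bars are ± SE and filled symbols passed an adjusted p of 0.05. RIPK1 stayed between 0.29 and 0.38 in all 4 settings, whereas BIRC2 ran from 0.01 to 0.87. For DMSO replicate 3 alone, the SE and the filling of symbols hold no spread between DMSO libraries.

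Permutation of the libraries (exact, 2-sided) gave p = 0.1 for XIAP, BIRC3, HTRA2, CFLAR and RIPK1, the smallest value that 3 against 3 libraries allow. The same exact test gave p = 0.2 for BIRC2, BIRC6 and TRAF2 and p = 0.3 for DIABLO. Of the 7 tested genes, 3 had corilagin values wholly above DMSO and 1 wholly below, beside 25% and 23.3% of all tested genes, 48.3% together. Leaving out DMSO replicate 3 gave log2 differences of 0.75 for XIAP, 0.87 for BIRC2, 0.87 for BIRC6, 0.35 for CFLAR, 0.36 for RIPK1, -0.59 for HTRA2 and -0.33 for TRAF2, with all 7 called (5 higher and 2 lower), beside 40.8% of all genes called higher and 36.5% lower, 77.3% together. That fit sets the GC difference between libraries alongside treatment, so the 2 cannot be told apart there. Leaving out any 1 of the 5 other libraries ended the calls of XIAP, HTRA2 and RIPK1 (limma adjusted p of 0.126 to 0.154, 0.107 to 0.148 and 0.0887 to 0.121).

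**Figure D3:**
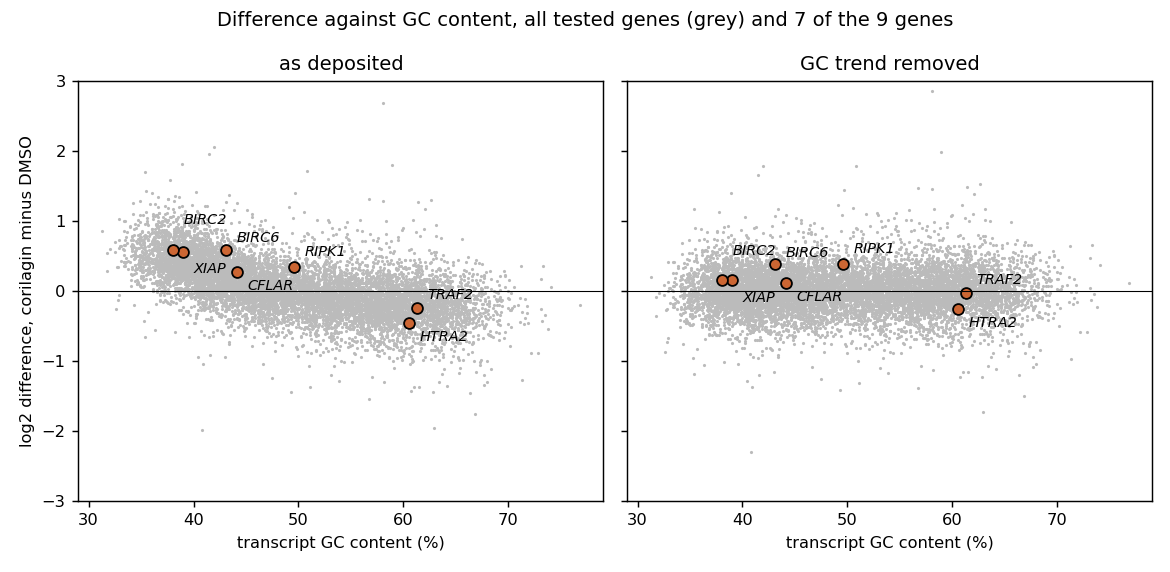
Log2 difference between corilagin and DMSO (vertical axis) against transcript GC content (horizontal axis, %) for all tested genes (grey) and the 7 tested genes of the set (orange), as deposited (left) and with each library's GC trend removed (right). XIAP and BIRC2 sit inside the cloud of low-GC genes on the left and at 0.15 on the right, while RIPK1 sits at 0.34 and 0.38.

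The order of mean levels per length also differed between groups, but DMSO replicate 3 alone had the corilagin order for the 7 tested genes. That library had BIRC6 at 12.2 FPKM, then XIAP (9.32), TRAF2 (9.07), BIRC2 (8.05), HTRA2 (7.35), CFLAR (5.33) and RIPK1 (4.31). In DMSO the order was TRAF2 (10.5 ± 1.41 FPKM), HTRA2 (9.05 ± 1.495), BIRC6 (8.32 ± 3.32), XIAP (7.08 ± 1.95), BIRC2 (5.33 ± 2.35), CFLAR (4.66 ± 0.581) and RIPK1 (4.14 ± 0.222), followed by DIABLO (0.374 ± 0.0740) and BIRC3 (0.160 ± 0.108; SD, n = 3 for each). Neighbours within the first 7 differed by less than their summed SD, and the gaps from RIPK1 to DIABLO and from DIABLO to BIRC3 exceeded it. The place of RIPK1 depends on the gene length noted above. After corilagin BIRC6 (12.5 ± 0.495 FPKM) and XIAP (10.7 ± 0.614) came first, then TRAF2 (8.71 ± 0.822), BIRC2 (8.13 ± 0.582), HTRA2 (6.25 ± 0.465), CFLAR (5.79 ± 0.218) and RIPK1 (5.50 ± 0.196), and BIRC3 and DIABLO were at 0.326 ± 0.0137 and 0.316 ± 0.0383 FPKM. There the gaps from BIRC6 to XIAP to TRAF2, from BIRC2 to HTRA2 and from RIPK1 to BIRC3 exceeded the summed SD, and the other neighbours did not differ beyond it.

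The genes whose levels over the 6 libraries were most like those of BIRC6, which by a narrow margin over BIRC2 had the highest difference of the tested genes on the log2(FPKM + 1) scale, were RAB18, BPTF and ZNF770. For HTRA2, which had the lowest, they were UROD, NDUFS3 and MPG. These were the 3 closest of 6564 protein-coding genes averaging 5 FPKM or more, by Pearson correlation of log2(FPKM + 1). The libraries fell into 2 sets for BIRC6, with DMSO replicates 1 and 2 apart from the rest, and 6 libraries in such sets carry little information on likeness.

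Of the remaining BIRC genes, only BIRC5, encoding survivin, passed the filter. Its values were 44.6, 48.9 and 48.3 FPKM with corilagin and 61.5, 60.6 and 46.7 FPKM with DMSO, so the groups overlapped (log2 difference -0.24, limma adjusted p = 0.157). NAIP, an inflammasome sensor with near-identical copies that can share reads, was at 0.731 ± 0.0540 and 0.606 ± 0.145 FPKM (SD, n = 3), and BIRC7 had 1 fragment in 1 DMSO library and was otherwise listed at 0. BIRC8 was not analysed here.

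Across 8 lists of further pathway genes, 13 of the 82 tested genes were called higher by limma and 5 lower, against 11.9% and 13.5% of all genes, and 64 did not pass. The lists' median log2 difference was -0.02, beside 0.03 for all genes. With the GC trend removed, 17 of 81 were higher and 15 lower, beside 21.8% and 23.2% of all genes. Against DMSO replicate 3 alone the lists' median log2 difference was 0.04, beside 0.01 for all genes. The shares of 11.9% and 13.5% also stand beside the counts of each list below.

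In the list of IAP regulators and IAP-binding proteins, 8 genes were tested. CASP9, the initiator caspase of the apoptosome, was at 2.84 ± 0.371 and 3.40 ± 0.609 FPKM (SD, n = 3) and did not pass (limma adjusted p = 0.254).

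Among death receptors and ligands of the TNF family, 2 of 9 tested genes were higher and 1 lower. TNF, the ligand whose receptor complex these genes restrain, was at 52.3, 54.9 and 59.1 FPKM after corilagin and at 106, 122 and 110 FPKM in DMSO. It fell to 0.492 of its DMSO level, with a log2 difference of -1.01 (limma adjusted p = 0.00189), or -0.89 with the GC trend removed and -0.98 against DMSO replicate 3 alone. TNFSF10, encoding TRAIL, rose 2.42-fold from 2.54 ± 0.923 to 6.14 ± 0.504 FPKM (SD, n = 3 per group; limma adjusted p = 0.0106), and its log2 difference of 1.04 became 0.69 with the GC trend removed. TNFRSF10D, a decoy receptor for TRAIL, rose 1.39-fold (limma adjusted p = 0.0128). TNFRSF1A, the receptor that assembles the complex with RIPK1 and TRAF2, was at 31.9 ± 1.13 and 40.2 ± 5.42 FPKM (SD, n = 3) and did not pass (limma adjusted p = 0.0700), though it passed with the GC trend removed (log2 difference -0.15, limma adjusted p = 0.0341).

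In the list of the death-inducing complex and necroptosis, 1 of 12 tested genes was higher and none lower. CASP10, the relative of caspase-8, rose 1.32-fold from 4.29 ± 0.115 to 5.65 ± 0.0683 FPKM (SD, n = 3 per group; limma adjusted p = 0.0230), and lost the call with quantile normalization (limma adjusted p = 0.0657). CASP8, the caspase that c-FLIP restrains, was at 7.16 ± 0.415 and 5.94 ± 0.303 FPKM (SD, n = 3) and did not pass (limma adjusted p = 0.0749). Its log2 difference of 0.23 went to -0.0025 with the GC trend removed. It was 0.31 against DMSO replicate 3 alone. It passed at 0.20 without that library (limma adjusted p = 0.00993) and at 0.34 with equal FPKM sums (limma adjusted p = 0.0214). The adaptors TRADD and FADD did not pass (limma adjusted p of 0.750 and 0.286). For TRADD the log2 difference was 0.27 against DMSO replicate 3 alone, and -0.23 with a pass without that library (limma adjusted p = 0.00619).

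Of 19 tested ubiquitin and kinase genes of the receptor complex, 2 were higher and 1 lower. CYLD, the deubiquitinase that trims the chains on RIPK1, rose from 7.01 ± 1.35 to 10.5 ± 0.311 FPKM (SD, n = 3 per group, limma adjusted p = 0.0256). Its log2 difference of 0.54 came down to 0.16 without the GC trend, which ended the call (limma adjusted p = 0.0548). Against DMSO replicate 3 alone it was 0.27. OPTN, a ubiquitin-binding adaptor, rose 1.48-fold (limma adjusted p = 0.0146) and IKBKE, an IKK-related kinase, fell to 0.644 of DMSO (limma adjusted p = 0.0136). Both passed with the GC trend removed (log2 differences of 0.40 and -0.37). TNFAIP3, the ubiquitin-editing enzyme A20, was at 16.9 ± 0.452 and 16.4 ± 0.270 FPKM (SD, n = 3; limma adjusted p = 0.655). The linear ubiquitin ligase subunits RBCK1 and SHARPIN did not pass (limma adjusted p of 0.687 and 0.237). For RBCK1 the log2 difference was -0.06, but 0.18 with a pass after GC removal (limma adjusted p = 0.0155) and -0.16 with a pass without DMSO replicate 3 (limma adjusted p = 0.0131). RNF31, the catalytic subunit, was at 0.226 and 0.218 FPKM, and exons of another gene on the same strand cover 50.4% of its coding bases.

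In the TRAF and noncanonical NF-kB list, 2 of 9 tested genes were higher (TANK and TRAF1) and 1 lower (RELB). TRAF1, which binds TRAF2 and BIRC2, rose from 1.57 ± 0.156 to 2.16 ± 0.0862 FPKM (SD, n = 3 per group; limma adjusted p = 0.0333), and its log2 difference of 0.30 was 0.43 without the GC trend, but 0.19 with quantile normalization, which ended the call (adjusted p = 0.146). TANK, a TRAF-binding regulator, was at 5.99, 6.34 and 11.9 FPKM in DMSO and 14.3 ± 0.586 FPKM (SD, n = 3) after corilagin, and its log2 difference of 0.81 became 0.24 against DMSO replicate 3 alone. RELB, the noncanonical NF-kB subunit, fell to 0.694 of DMSO (limma adjusted p = 0.0359). Its log2 difference of -0.47 became -0.22 with the GC trend removed, where it passed (limma adjusted p = 0.0171). Against DMSO replicate 3 alone it was also -0.22. Among NF-kB targets 2 of 14 were higher (BCL2A1 and IL1B) and 1 lower (GADD45B). IL1B rose 1.72-fold (limma adjusted p = 0.0121) and passed with the GC trend removed. The BCL2A1 and GADD45B calls ended there (log2 difference 0.33, limma adjusted p = 0.235, and -0.11, limma adjusted p = 0.238). Against DMSO replicate 3 alone their log2 differences were 0.86 and -0.24. Of 10 genes of mitochondrial release, APAF1, the core of the apoptosome, and OMA1, an inner membrane protease, were higher and CHCHD2, an intermembrane space protein, was lower. The rises of APAF1 and OMA1 ended with the GC trend removed (log2 differences of 0.11 and 0.17, adjusted p of 0.108 and 0.0926). Their log2 differences were 0.17 and 0.28 against DMSO replicate 3 alone, and OMA1 passed in limma-voom with the trend removed (0.45, adjusted p = 0.00513). CHCHD2 passed with the trend removed (-0.30, adjusted p = 0.00551). With no filter on low genes, the calls of TANK, TRAF1, RELB, APAF1 and CHCHD2 ended (limma adjusted p of 0.0708, 0.0565, 0.0582, 0.0626 and 0.0696).

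**Figure D4:**
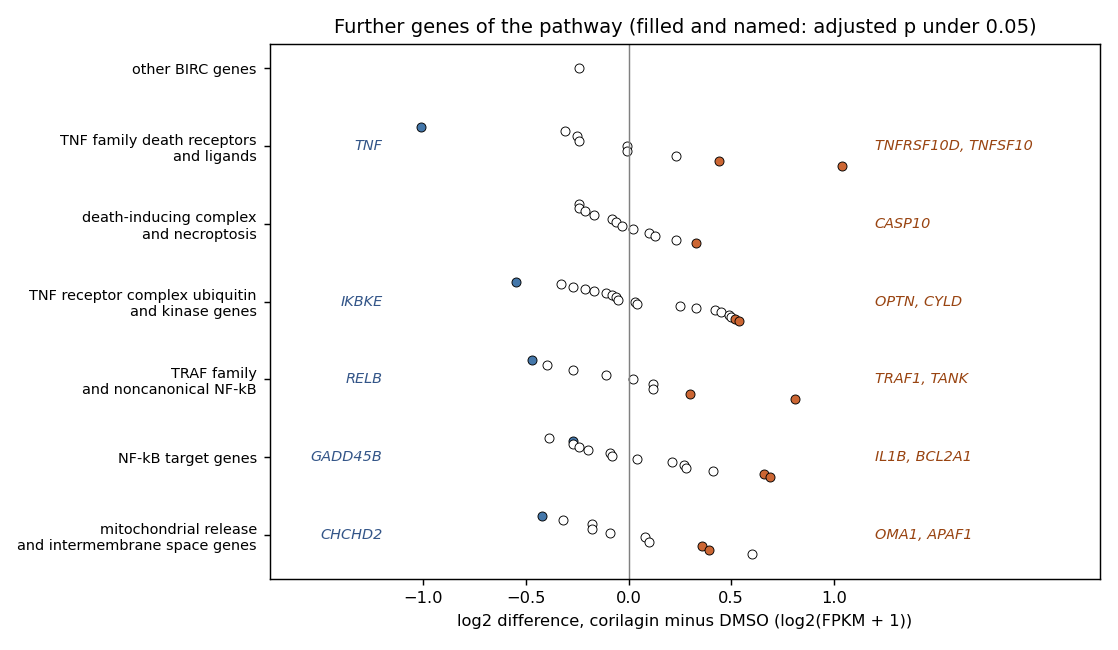
Log2 difference between corilagin and DMSO (horizontal axis, log2(FPKM + 1)) of the tested genes of 7 of the pathway lists, 1 point per gene; filled points passed an adjusted p of 0.05 and are named in order from the lowest to the highest value, rises on the right and falls on the left. TNF lies farthest to the left at -1.01 and TNFSF10 farthest to the right at 1.04.

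Over the whole table, limma called 1171 genes higher and 1331 lower (46.8% higher), a share that was 60.5% on rescaling to equal FPKM sums, which moved the median difference of all genes from 0.035 to 0.136. The 9 genes kept their direction under equal sums, median-of-ratios scaling and quantile normalization. All 9 myeloid and leukaemia markers were above 1 FPKM, the T-cell, erythroid and fibroblast lists summed to at most 0.108 FPKM in any library, KRT8 was the 1 of 4 epithelial markers above 1 FPKM, and of the B-cell markers CD79A was above 1 FPKM and MS4A1 was at 0.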

How the data were processed

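MV411 cells were profiled by RNA-seq, 3 libraries per group. The authors deposited 1 table of FPKM, and fastp 0.22.0, HISAT2 2.1.0, HTSeq 0.9.1, DESeq 1.38.3 and GRCh38 are named, without settings, per the submitters' processing notes. FPKM values were whole multiples of 1 fragment, from which fragments were recovered for all 15921 genes above 0 (tolerance 0.01) as the smallest numbers that were whole in every library, so that share alone says little. Library totals were inferred as those for which gene lengths came out whole, which held for 98.5% of 400 genes. Symbols matched 20011 identifiers; coordinates, overlaps and GC content of the longest transcript (coding where there is one) came from GENCODE 29.

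Groups were compared in limma 3.58.1 under R 4.3.3 (eBayes with trend, 2-sided) on log2(FPKM + 1) for 9868 genes whose mean reached 1 FPKM, with Benjamini-Hochberg adjustment and a threshold of 0.05. Such differences understate those of low genes. Genes under the filter came from the fit over 15921 genes. The GC trend of each library was a natural spline with 5 degrees of freedom, and its removal takes out any true difference that follows GC content. Alternatives were 2 other pseudocounts, other filters and scalings, limma without trend, limma-voom on recovered fragments, the replicate block, GC removal and leaving out each library. The comparison with DMSO replicate 3 alone and limma-voom with GC removal were added after seeing the data. Named genes were the 9 genes, the other BIRC genes, up to 3 rises and 3 falls per list, core receptor-complex genes, the caspases bound by XIAP and the genes most like the highest and lowest of the 9. Some results that this rule names are not reported here. Genes and lists were chosen with earlier results of these data known. The fits were also run on simulated data, with no GC trend or a straight one. The outcome is not reported here and is not used as support.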

Additional observations from a re-analysis of the deposited data

How the results depend on the processing

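Results for the 9 genes were recomputed 171 times under the alternatives, which include the comparison that holds only 1 DMSO library. In none of these did the direction turn, 138 kept their side of the threshold, 23 lost a call and 10 gained one. The 2 higher and 1 lower calls became 1 higher with quantile normalization and 1 higher and 0 lower without a filter. With a mean of at least 5 FPKM, which leaves RIPK1 untested, 1 was higher. Leaving out 1 library gave 0 to 6 higher and 0 to 2 lower. The labels do not say what a replicate number marks, so the numbers were not treated as pairs. Deviations from the group means of same-numbered libraries correlated at 0.280, 0.079 and 0.339, and those of differently numbered libraries at -0.323 to 0.279. Deviations within a group of 3 sum to 0, so these correlations cannot decide whether the libraries are paired. With the replicate block 4 of the genes were higher, beside 1547 higher and 1330 lower of all 9868, as BIRC2 and BIRC6 gained a call (adjusted p of 0.0484 and 0.0437). TRAF1 and GADD45B lost theirs under the block (adjusted p of 0.0511 and 0.0700).

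For all genes, leaving out 1 library gave 131 to 4030 higher and 176 to 3597 lower, the highest of each without DMSO replicate 3. The counts were 2151 and 2287 with the GC trend removed, 2154 and 2237 when the replicate block was added to that, 2105 and 2331 in limma-voom with the trend removed, 1916 higher and 1831 lower against DMSO replicate 3 alone and 713 higher with a mean of at least 5 FPKM. For the pathway genes, leaving out 1 library gave 0 to 29 higher and 1 to 37 lower. There were 15 lower with the GC trend removed, with or without the replicate block, 20 higher and 14 lower in limma-voom with the trend removed, 24 higher and 9 lower against DMSO replicate 3 alone and 3 lower without a filter. The cause of these shifts was not tested.

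Among the pathway genes named in the text, directions turned for 9 that were not called as deposited, and some other genes of the lists turned too. TRADD was at 0.04 with equal sums, 0.18 with the GC trend removed (also with the replicate block), 0.20 in limma-voom with the trend removed, 0.27 against DMSO replicate 3 alone, and 0.01 and 0.03 without DMSO replicates 1 and 2. RBCK1 was at 0.05, 0.18, 0.21 and 0.15 in the first 4 of these and at 0.01 without DMSO replicate 1. Leaving out DMSO replicate 3 instead gave -0.23 for TRADD and -0.16 for RBCK1, both with a pass. RBCK1 also passed with the trend removed, as given above. SHARPIN was at 0.09, 0.11 and 0.04 with the trend removed, in limma-voom with the trend removed and against DMSO replicate 3 alone. CASP8 was at -0.0025 and -0.02 in the first 2 of those, NAIP at -0.01 and -0.03 in the last 2, and FADD and BIRC5 at 0.10 and 0.02 in the last. TNFAIP3 was at -0.0029 with median-of-ratios scaling, and RNF31 at -0.02 with quantile normalization and without corilagin replicate 2. GC removal on log2(FPKM + 1) was not run for genes under the filter. Depth limits BIRC3 and DIABLO, which had at most 55 fragments in any library.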

Other observations

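DIABLO and RNF31 were not alone in having few fragments where annotated genes overlap. Of 1224 protein-coding genes in the table with at least 50% of their coding bases in exons of another protein-coding gene on the same strand (GENCODE 29), 983, or 80.3%, had a mean below 1 FPKM, and the median level was 0.018 FPKM. Among the 17824 genes with no such base, 48.1% were below 1 FPKM, and the median was 1.33 FPKM. The first group also holds the read-through genes themselves.

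For RIPK1, the FPKM implied a gene of 12173 bases, against 4231 in GENCODE 29. For BIRC3 the implied length equalled that annotation, at 7518 bases.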
